A study of Schizosaccharomyces pombe with 5 samples.

Results

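The peaks described here lie on the genes for 28S and 5.8S ribosomal RNA (SPRRNA.49 and SPRRNA.52) and on 2 genes of the RNA polymerase I machinery, rrn6 and rpa2. They were taken from lists of CLIP-Seq peaks by position: every peak in a window of chromosome III that reaches from ITS1 into 28S, on the 5′ end of rrn6, or within the rpa2 gene. The rule found 2 of the 128 peaks of the Mei2-TAP list and 4 of the 140 peaks of the Msa1-TAP list, 6 of 268 in all, on 4 of 12645 annotated genes. These genes were chosen from the lists themselves, and a peak is listed only where the tagged library held at least 4 times the tags of the untagged library after scaling to library totals, so every fold below is a description without a test.

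The study sought RNAs bound by Mei2, an RNA-binding protein that fission yeast (Schizosaccharomyces pombe) needs to enter meiosis, and used Msa1, another RNA-binding protein, and untagged cells as controls. CLIP fixes protein to RNA with ultraviolet light, recovers the protein by its tag and sequences the attached RNA. The groups were Mei2-TAP (mei2-TAP>>KanMX, 2 libraries), Msa1-TAP (msa1-TAP>>KanMX, 2 libraries) and untagged (h90 ura4-D18 leu1-32, 1 library), all of the homothallic mating type h90 and, per the labels, starved of nitrogen in ME medium for 4 h. The TAP tag was placed at the C-terminus of the protein at its own gene. The 2 lists rest on 1 tagged library each and share the untagged library; the second library of each tagged strain was not analysed here. The totals recovered from the lists were 194019 tags in the Mei2-TAP library, 359943 in the Msa1-TAP library and 252537 in the untagged library, where a tag is one fragment and each mate of a pair adds 0.5. With 1 library a group, no difference below has a replicate check, and intervals cover counting error only.

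RNA polymerase I transcribes the rDNA repeats into one long precursor that carries the 18S, 5.8S and 28S rRNAs in that order. Internal transcribed spacers separate them, ITS1 lying between 18S and 5.8S, and are cut out as the precursor matures. Rpa2 is the second-largest subunit of RNA polymerase I and forms part of its catalytic core. Rrn6 belongs to the core factor, which recruits the enzyme to the rDNA promoter.

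The segments on which the results turn are shown as DNA in the sense of the transcript, 5′ to 3′, from the RefSeq ASM294v3 genome. The first is the part of 28S under the strongest Msa1-TAP peak, III:2444969-2445169, plus strand, entirely lower case because no part of it was singled out. The second is the ITS1 and 5.8S peak of the same list, III:2443092-2443292, plus strand, with the 5.8S bases in capitals. The third is the coding part of the rrn6 peak less its last codon, II:3372059-3372184, minus strand, with the start codon in capitals. The fourth is the end of the rpa2 coding sequence under the Msa1-TAP peak, II:2011604-2011643, plus strand, with the bases that the Mei2-TAP peak also covered in capitals. The fifth is the upstream rpa2 peak that was in the Mei2-TAP list alone, II:2010836-2011036, plus strand, all lower case.
28S: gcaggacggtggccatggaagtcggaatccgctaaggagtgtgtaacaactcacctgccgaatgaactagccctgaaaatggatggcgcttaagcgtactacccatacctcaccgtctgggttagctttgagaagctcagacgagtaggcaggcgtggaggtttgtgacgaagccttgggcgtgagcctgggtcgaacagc
ITS1 and 5.8S: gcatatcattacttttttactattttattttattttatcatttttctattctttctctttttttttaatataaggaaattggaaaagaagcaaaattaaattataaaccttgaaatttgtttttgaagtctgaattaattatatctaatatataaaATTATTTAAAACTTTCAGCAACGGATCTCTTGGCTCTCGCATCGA
rrn6 start: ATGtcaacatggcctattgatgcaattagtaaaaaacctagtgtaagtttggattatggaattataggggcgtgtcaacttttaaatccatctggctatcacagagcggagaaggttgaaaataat
rpa2 end: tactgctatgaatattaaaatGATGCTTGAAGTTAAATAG
rpa2 upstream: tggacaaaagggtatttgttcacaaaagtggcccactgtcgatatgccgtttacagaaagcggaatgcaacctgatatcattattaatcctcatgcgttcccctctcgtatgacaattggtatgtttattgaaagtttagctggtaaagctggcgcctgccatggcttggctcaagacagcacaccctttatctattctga

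Of the 11 annotated nuclear genes for 18S, 5.8S and 28S rRNA, 3 lay under Msa1-TAP peaks and 0 under Mei2-TAP peaks. Of all nuclear genes, 1.73% lay under a Msa1-TAP peak and 1.56% under a Mei2-TAP peak. SPRRNA.49 and SPRRNA.52 were chosen from the lists, so no enrichment can be read from the count of 3. The count of 0 among 11 is near the background. The 28S segment was the deepest peak of the whole Msa1-TAP list. It held 2704.5 tags in the Msa1-TAP library and 98.5 tags in the untagged library. After scaling to library totals this was 19.3-fold (95% Clopper-Pearson interval 15.8 to 23.8). The segment alone took 0.751% of all Msa1-TAP tags (Wilson 95% interval 0.724 to 0.780%) and 0.0390% of untagged tags (0.0320 to 0.0475%). It held 28.1% of the tags of all 140 Msa1-TAP peaks together. The next deepest peak of that list had 815.5 tags and lay on the mitochondrial genome, where peaks were not assigned to genes. The fold of the 28S segment ranked 8 of 140, since 7 peaks had a higher one. Those 7 peaks had 14 to 18 Msa1-TAP tags and 0.5 untagged tags each, so their folds rest on far fewer tags. By untagged tags the 28S segment ranked 2 of the 140 Msa1-TAP peaks, though it took only 0.0390% of the untagged library. That rank holds within the Msa1-TAP list only. The Mei2-TAP list held a peak with 463.5 tags of the same untagged library.

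The peak at the start of 5.8S ranked 3 of 140 by tags and 14 of 140 by fold. It held 495.5 Msa1-TAP tags and 30.5 untagged tags, an 11.4-fold ratio (interval 7.91 to 17.0). This was 0.138% of Msa1-TAP tags and 0.0121% of untagged tags. Only the last 45 nt of the 201-nt segment belonged to 5.8S, and these were its first 45 nt. The other 156 nt lay in ITS1, a spacer that mature ribosomes do not keep. The peak therefore crossed the boundary between spacer and 5.8S. An interval and its total do not show where within it the tags fell.

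Just outside the window, the Msa1-TAP list held 1 more rRNA peak, in 18S (SPRRNA.46, III:2441718-2441918). It had 38.0 Msa1-TAP tags and 5.0 untagged tags, 5.33-fold (interval 2.10 to 17.4). The 3 rRNA segments have the same length, and their tags were unequal in both libraries. The 28S segment had 5.46 times the tags of the 5.8S segment in the Msa1-TAP library (interval 4.96 to 6.02) and 3.23 times in the untagged library (2.13 to 5.02). It had 71.2 times the tags of the 18S segment in the Msa1-TAP library (51.7 to 101) and 19.7 times in the untagged library (8.16 to 62). The order 28S, 5.8S, 18S was thus the same in both libraries. Both ratios were larger in the Msa1-TAP library. This only restates the folds over untagged, 19.3 for 28S against 11.4 for 5.8S and 5.33 for 18S, and is no further observation. The difference between the libraries was not tested.

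**Figure D1:**
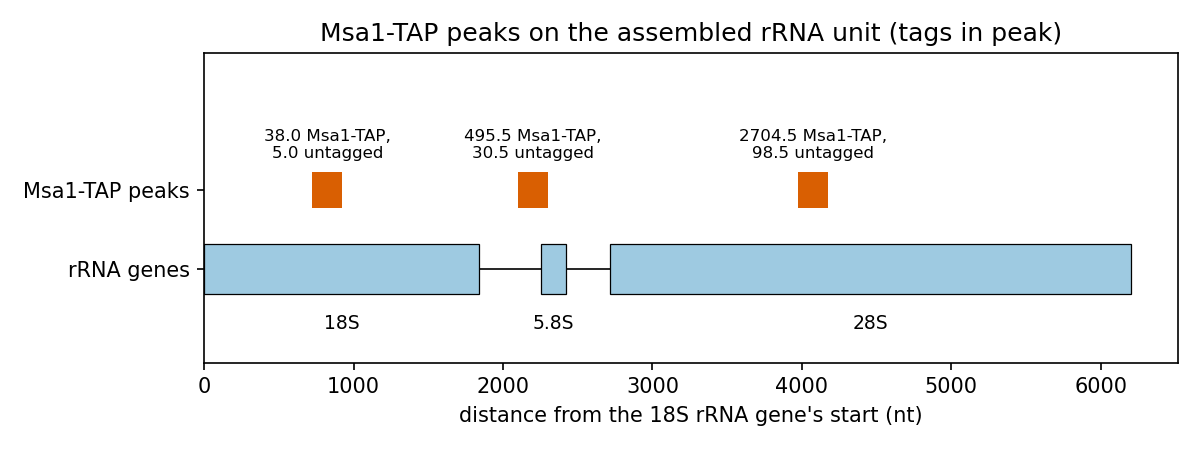
Position of the 3 Msa1-TAP rRNA peaks (orange) against the 18S, 5.8S and 28S genes (blue boxes), by distance in nt from the start of 18S; the numbers give tags in the Msa1-TAP and then the untagged library. The 28S peak had 2704.5 tags in Msa1-TAP cells, and the 5.8S peak lies mostly before its gene.

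The listed peaks covered a short stretch of each gene. The 28S peak spanned nucleotides 1257 to 1457 of the 3485-nt gene SPRRNA.49 (III:2443713-2447197), with its midpoint at 38.9% of the length. The 18S peak spanned nucleotides 725 to 925 of the 1842-nt SPRRNA.46, with its midpoint at 44.8%. No second peak was listed in either gene. Tags outside the listed peaks were not read, so how far signal extended along the mature rRNA is not known.

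The rDNA is repeated, and the assembly holds several copies. The 28S segment occurred 3 times in the reference, once in SPRRNA.49 and once in each of SPRRNA.47 (III:8085-8285) and SPRRNA.48 (III:18955-19155) at the other end of chromosome III. The 3 28S genes were identical over 3485 nt. A peak was listed at 1 of the 3 copies in the Msa1-TAP list and at 0 in the Mei2-TAP list. The 18S segment occurred 4 times, again with a Msa1-TAP peak at 1 copy. The ITS1 and 5.8S segment occurred once exactly, and its counterparts beside SPRRNA.50 and SPRRNA.51 differed by 1 edit each. The 5.8S genes themselves were identical, which places that difference in ITS1. How reads that fit several copies were assigned is not given in the sources used here, so a tag count at SPRRNA.49 is a count for the family of copies as the authors' alignment divided it. No peak of either list lay on any of the 36 annotated 5S rRNA genes, which RNA polymerase III transcribes. Of all nuclear genes 1.56% lay under a Mei2-TAP peak and 1.73% under a Msa1-TAP peak, so a count of 0 among 36 genes is near the background and says nothing about 5S.

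The absence of rRNA from the Mei2-TAP list sets no upper limit on its Mei2-TAP tags, because no count was read there. With the untagged tags of the 28S segment, a 4-fold ratio would have needed 303 Mei2-TAP tags, and 93.7 tags at the 5.8S segment. The Mei2-TAP list gives no value for unlisted positions, so the Mei2-TAP level there is known only as not having passed the authors' criteria. The nearest Mei2-TAP peak lay 137997 nt from the 5.8S segment.

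The gene rrn6 (SPBC3B8.11, II:3369297-3372287, minus strand) had a peak in the Msa1-TAP list at its 5′ end. The 309-nt peak held 101.0 Msa1-TAP tags and 10.5 untagged tags. The ratio was 6.75-fold (interval 3.57 to 14.2), which ranked 43 of 140, while the tags ranked 13 of 140. Of its length, 129 nt were the start of the coding sequence, 103 nt were the annotated 5′ untranslated region and 77 nt lay before the annotated gene. The start codon shown above was thus inside the peak, and the rest of the 2991-nt gene was under no peak. The Mei2-TAP list held no peak on rrn6, where a 4-fold ratio over the same untagged tags would have needed 32.3 Mei2-TAP tags.

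The gene rpa2 (SPBP23A10.07, II:2008086-2011955, plus strand) was under peaks of both lists, at its 3′ end. The Mei2-TAP peak II:2011625-2011875 held 31.5 Mei2-TAP tags and 10 untagged tags, 4.10-fold (interval 1.96 to 9.36). The Msa1-TAP peak II:2011604-2011804 held 46.0 Msa1-TAP tags and 7.0 untagged tags, 4.61-fold (interval 2.07 to 12.1). Both folds stood close to the 4-fold limit of the lists, ranking 122 of 128 in the Mei2-TAP list and 110 of 140 in the Msa1-TAP list. The 2 peaks shared 180 nt, which were 71.7% of the Mei2-TAP peak and 89.6% of the Msa1-TAP peak. Most of each lay past the stop codon: 232 nt of the Mei2-TAP peak and 161 nt of the Msa1-TAP peak were 3′ untranslated region, against 19 nt and 40 nt of coding sequence. Scaled to 100000 tags of the library, the rpa2 3′ end had 16.2 tags in Mei2-TAP and 3.96 in untagged cells over the longer peak, and 12.8 tags in Msa1-TAP and 2.77 in untagged cells over the shorter one. The peaks differ in extent and share the untagged library, so the 2 folds were not compared by a test. Over the whole lists, 18 of 128 Mei2-TAP peaks and 19 of 140 Msa1-TAP peaks overlapped a peak of the other list, so a shared position is not particular to rpa2.

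A second rpa2 peak, included because it lies within the gene, was in the Mei2-TAP list alone. It fell within the coding sequence at nucleotides 2751 to 2951 of the gene, 588 nt before the first. It held 9.5 Mei2-TAP tags and 2.0 untagged tags. The ratio of 6.18-fold had a lower bound of 1.3 and an upper bound of 58.4, the widest of the 6 peaks, and by tags the peak ranked 105 of 128. A non-coding RNA gene on the minus strand, SPNCRNA.5449, overlaps the same position. The libraries preserved strand, but the lists give the plus strand throughout, so the lists used here do not tell reads of rpa2 from those of SPNCRNA.5449. The strand-specific coverage tracks were not analysed here.

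**Figure D2:**
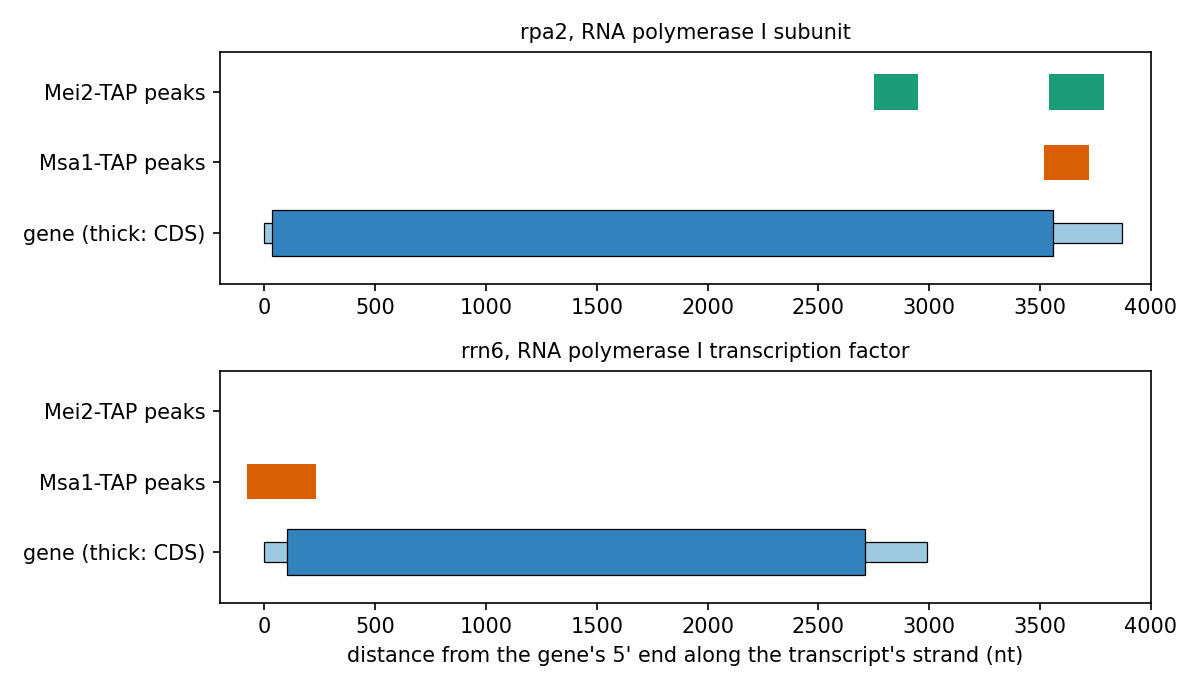
Listed peaks on rpa2 and rrn6 by distance in nt from the gene's 5′ end, with Mei2-TAP peaks (green) above Msa1-TAP peaks (orange) and the gene (thick box, coding sequence). Both lists marked the 3′ end of rpa2, where the peaks shared 180 nt, and only the Msa1-TAP list held a peak on rrn6, at its 5′ end.

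**Figure D3:**
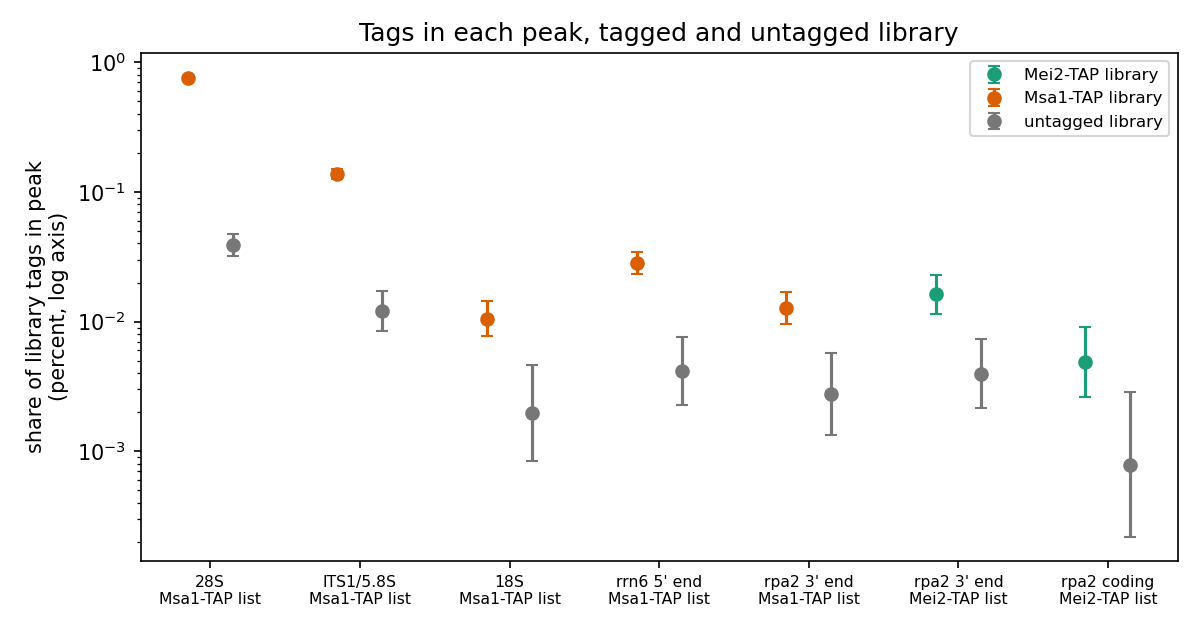
Share of each library's tags in each peak, in percent on a log axis, with Wilson 95% intervals for counting error; the tagged library (green Mei2-TAP, orange Msa1-TAP) is left of the untagged library (grey). Every tagged share lay above its untagged share, as the 4-fold criterion of the lists required; the 28S segment took 0.751% of Msa1-TAP tags and 0.0390% of untagged tags.

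The other genes that serve the same enzyme were mostly without a peak. Of 14 RNA polymerase I subunits, 1 was under a Mei2-TAP peak and 1 under a Msa1-TAP peak, rpa2 in both cases. For comparison, 2.25% of nuclear coding genes lay under a Mei2-TAP peak and 2.54% under a Msa1-TAP peak. The largest subunit, nuc1, and the subunits particular to this enzyme, rpa12, rpa34, rpa43, rpa49 and ker1, had none. Of 10 transcription factors of RNA polymerase I, 9 were matched in the annotation. Among these, 0 lay under a Mei2-TAP peak and 1, rrn6, under a Msa1-TAP peak. Rrn7 and rrn11, which encode the partners of Rrn6 in the core factor, and rrn3, which encodes the factor that readies the polymerase for initiation, had no peak. The counts include rpa2 and rrn6, which the choice of genes itself fixed, so no enrichment can be read from them. At the shares above most coding genes lay under no peak, so the genes without a peak are no result either.

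The other nuclear RNA polymerases gave no peak in either list, with 0 of 7 subunits particular to RNA polymerase II and 0 of 10 subunits of RNA polymerase III. Of 45 genes matched to a list of names for rRNA processing and modification, 2 lay under Mei2-TAP peaks and 0 under Msa1-TAP peaks. The match was by name or synonym alone. The annotation gives dim1 as a U4/U6 x U5 tri-snRNP subunit and rrp1 as a DNA helicase, so the 45 include genes of other function. Beside the 2.25% and 2.54% of nuclear coding genes under a peak of the Mei2-TAP and Msa1-TAP lists, these counts are near the background and are no result about these genes. One was dhp1, which encodes a 5′-3′ exoribonuclease that trims rRNA ends, with 9.0 Mei2-TAP and 1.5 untagged tags (7.81-fold, interval 1.39 to 123). The other was dis3, which encodes a ribonuclease of the exosome, with 11.0 Mei2-TAP and 3.0 untagged tags (4.77-fold, interval 1.26 to 26.6). Both peaks also overlapped a non-coding RNA gene, SPNCRNA.3502 at dhp1 and SPNCRNA.6374 at dis3. The untagged counts of 3.0 or fewer make these the least precise values given here together with the upstream rpa2 peak.

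**Figure D4:**
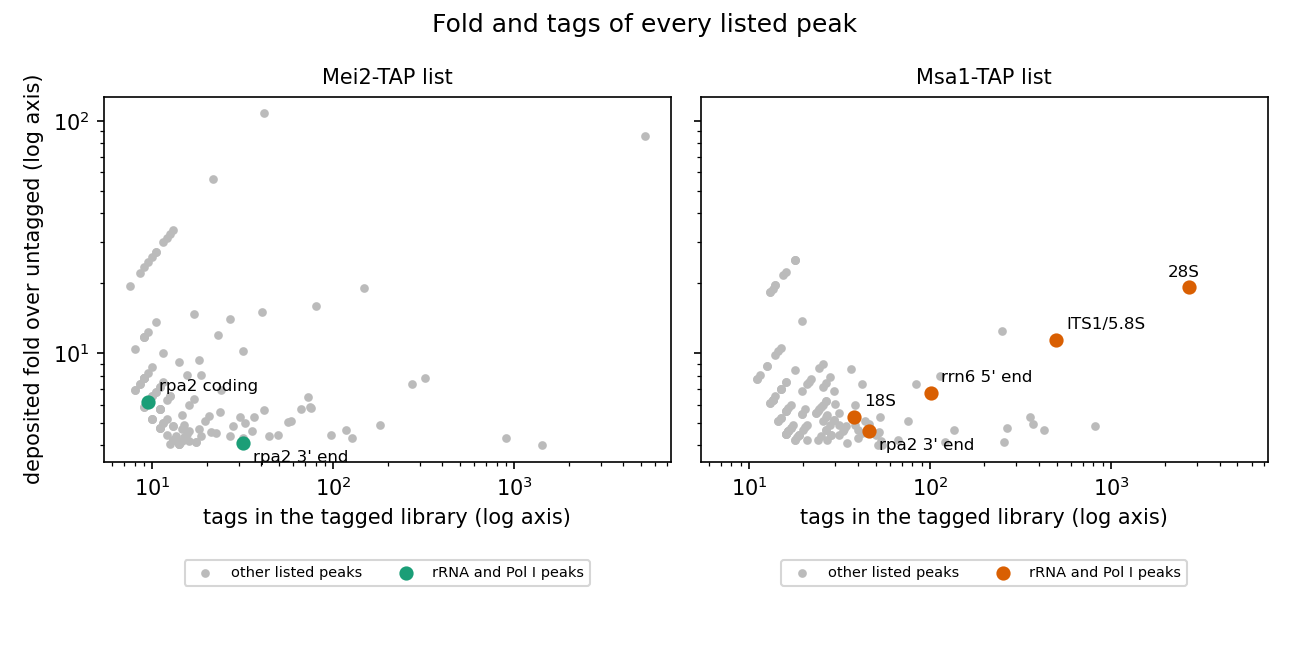
Deposited fold over the untagged library against tags in the tagged library for every listed peak (log axes), Mei2-TAP list on the left and Msa1-TAP list on the right, with the rRNA and RNA polymerase I peaks in colour. In the Msa1-TAP list the 28S peak lies apart at high tags and high fold. The 5.8S peak (495.5 tags, 11.4-fold) is also high in both, near another peak with 249 tags and 12.48-fold. The rpa2 3′ peaks lie near the lower limit of the lists.

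The 28S and 5.8S peaks lay at opposite ends of the Msa1-TAP list in base composition. The 28S segment had a G+C content of 55.7%, the highest of the 137 nuclear Msa1-TAP peaks, against 47.1% for its whole gene. The ITS1 and 5.8S segment had 21.9%, the lowest of the 137, and 45.3% of its bases were U. The median of the nuclear Msa1-TAP peaks was 35.8%, and the nuclear genome had 36.1%. The 18S segment, at 39.3%, was within the range of the other peaks. At the 3′ end of rpa2, the Mei2-TAP peak had 27.9% G+C, the lowest of the 128 Mei2-TAP peaks, whose median was 39.8%. The Msa1-TAP peak there had 28.4% and the rrn6 peak 32.0%. The upstream rpa2 peak, within coding sequence, had 43.8%. The members thus spanned the whole range of G+C found in the Msa1-TAP list and had no common composition.

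**Figure D5:**
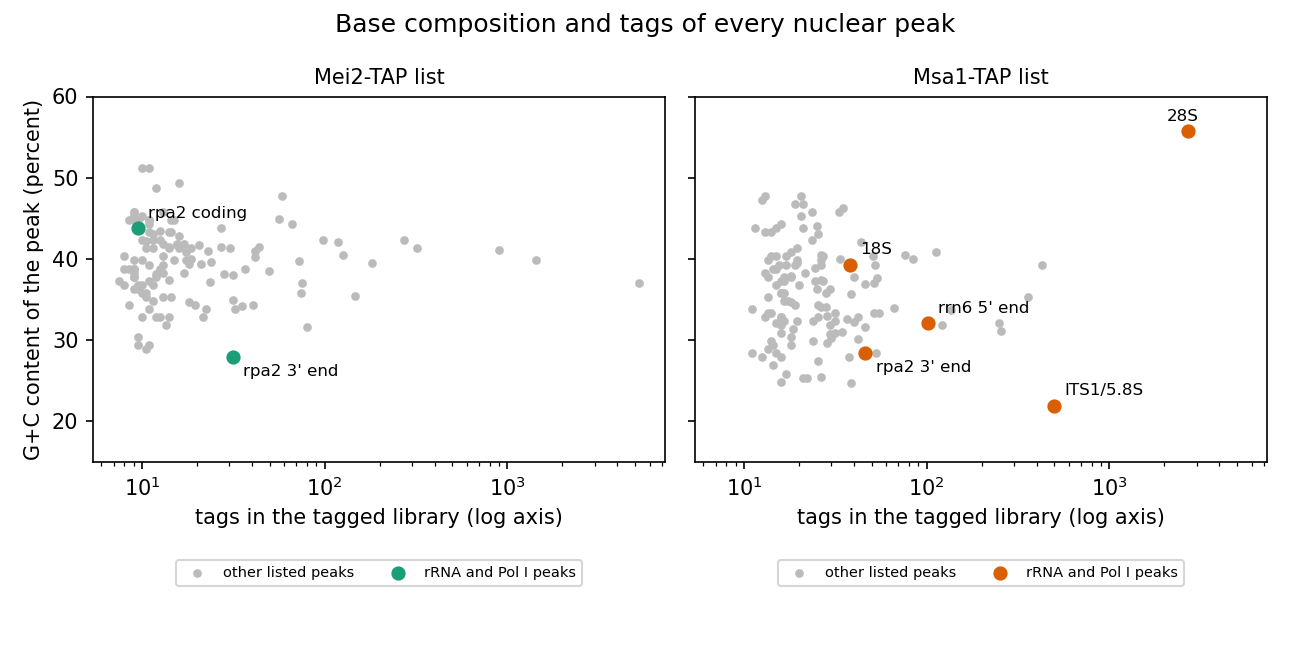
G+C content of each nuclear peak in percent against tags in the tagged library (log axis), Mei2-TAP list on the left and Msa1-TAP list on the right, with the rRNA and RNA polymerase I peaks in colour. In the Msa1-TAP list the 28S peak (55.7%) is at the top and the ITS1 and 5.8S peak (21.9%) at the bottom.

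The segments were searched on both strands for the hexamer TNAAAC with T, C or G as its second base, which is bound by Mmi1, the protein that Mei2 holds in check at meiosis. One match was found, a single copy in the sense strand of the rrn6 peak. None was found in the 28S, 5.8S, 18S or rpa2 segments. At least 1 such hexamer, on either strand, is present in 41.4% of consecutive 201-nt windows of the nuclear genome and in 56.2% of windows of 309 nt, the length of the rrn6 peak. The matches and their absence describe the letters in these windows only.

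The peak score given by HOMER did not follow the tags at the rRNA. Among the 94 Msa1-TAP peaks that were 201 nt long, tags divided by score had a median of 1.02. The 28S peak had the highest quotient, 43.3, from 2704.5 tags and a score of 62.5. The ITS1 and 5.8S peak had the second highest, 12.7, from 495.5 tags and a score of 39.0. By score the 28S peak ranked 7 of 140, whereas by tags it was the deepest of the list. The quotient was 1.28 at the Msa1-TAP rpa2 peak and 0.95 at the upstream Mei2-TAP rpa2 peak, and 2.71 at the 18S peak. HOMER's clonal ratio in the Msa1-TAP list was 0.91 at the 28S peak, 1.35 at the ITS1 and 5.8S peak and 1.48 at the 18S peak. It was 1.78 at the rrn6 peak and 1.62 at the rpa2 peak of that list. The files do not define the score, and whether the rRNA tags include repeated copies of the same amplified fragments was not tested.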

How the data were processed

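CLIP-Seq libraries of Mei2-TAP, Msa1-TAP and untagged cells were made by a dUTP method that keeps strand, amplified over 12 cycles and read from both ends. No molecular identifiers were described. The submitters' processing notes name STAR, SAMtools, deepTools and HOMER and the ASM294v2 build. The growth protocol names harvests at other times besides 4 h, and the study's methods name other temperatures than the labels. The authors called wide peaks with HOMER in each tagged library against the untagged one. Per the file headers, the deposited signal is tags per 10000000 tags. The deposited estimated counts of tags were partly on the scale of the other library. The deposited fold is a ratio of scaled tags, the deposited p-value is HOMER's unadjusted value, and the deposited score and clonal ratio are HOMER's. The p-value served only for the stricter alternative. Copies of both lists filed with the series were identical and not used.

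The Msa1-TAP total was recovered from 0.5-tag steps. The Mei2-TAP total came from tags over signal at the largest Mei2-TAP peak, and the untagged total from tags over signal at the deepest Msa1-TAP peaks. Tags given on the scale of another library were converted and rounded to 0.5-tag steps. For 122 of 122 Mei2-TAP peaks with under 40 untagged tags the value lay within 0.2 steps of a whole step. This does not check the Msa1-TAP total. Ratios had exact Clopper-Pearson 95% intervals and shares Wilson intervals. The recovery of a total from steps and the intervals of ratios were tested on simulated data (Python 3.11.15, scipy 1.17.1). A recomputed ratio differed from the deposited fold by at most 0.124% where the untagged library had 3 tags or more. The total of the tagged library cancels from this ratio apart from rounding of tags, so the match does little to check that total. Genes and sequence came from RefSeq ASM294v3. No nuclear peak lay past a chromosome end, and nuclear gene positions were compared with the study's tables, which use the older build. A peak belonged to every nuclear gene it overlapped by 1 nt on either strand, and positions are given with both ends included. Mitochondrial peaks were not assigned to genes. The named genes are those under the peaks chosen by position, those of the polymerase and rRNA-processing lists under a peak, and the rRNA peak just outside the window. Members and lists were chosen with earlier results of these data known. The list of Mei2-TAP against Msa1-TAP was not analysed here.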

Additional observations from a re-analysis of the deposited data

How the results depend on the processing

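The ratios of the 6 peaks and of the 18S peak moved by less than their counting intervals when library totals left out the tags in listed peaks or when 0.5 tags were added to both libraries: 28S stayed between 19.2 and 19.7, 5.8S between 11.2 and 11.7, and the Mei2-TAP rpa2 3′ end between 3.97 and 4.32. Of 27 recomputed values, 23 stayed within these intervals or, for counts, within 1.5 times. The shared rpa2 position, 1 in number, was the same with an overlap of at least 50% of each peak. Counting only peaks with a fold of at least 8 and a p-value of at most 1e-10 left 0 of the 2 Mei2-TAP peaks and 2 of the 4 Msa1-TAP peaks, those on 28S and 5.8S, and left 0 RNA polymerase I genes under either list, where all peaks gave 1 under Mei2-TAP and 2 under Msa1-TAP, because rpa2 and rrn6 lie below that fold. Of the 3 rRNA genes under Msa1-TAP peaks, 2 were left. With only the gene of longest overlap, or for polymerase genes with at least 100 nt, these numbers were the same as with any overlap. No paired analysis was possible because each list rests on 1 tagged library and the same untagged library, and no library could be left out in turn. The depth of the Mei2-TAP library, 194019 tags, limits what could be listed at low counts.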
